A study of Mus musculus with 5 samples.

Results

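Genes of sterol and fatty acid metabolism were compared between CD4 single-positive (CD4SP) thymocytes of PLZF transgenic and of wild type mice. The set was a list of 33 genes, picked by name for what they encode, from the enzymes of cholesterol synthesis to the desaturases of fatty acids. Of these, 26 had a row of the deposited table that named them alone, and they were read from a fit over 12267 genes. Where several rows named the same gene, the one with the highest mean level was used. Acat2, Hmgcs1, Soat1 and Ebp were not analysed here, and Tm7sf2, Acss2 and Acsl3 each shared a row with another gene and are given no value.

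The arrays came in 3 PLZF transgenic and 2 wild type samples, each from lymphocytes sorted as CD4-positive and CD8-negative from the thymus of mice aged 4 to 6 weeks on the C57BL/6J background. Every sample was RNA of pooled mice, read on 1 Affymetrix mouse exon array. How many mice made a pool, and which promoter drives the transgene, is not given in the sources used here. Samples of a genotype are labelled biological replicates, with no word on whether pools were prepared on the same day. PLZF is a BTB zinc finger transcription factor of innate-like T cells, and its gene Zbtb16 was not analysed here, which leaves the genotype labels unchecked.

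Cells obtain cholesterol by making it from acetyl-CoA or by taking up lipoproteins, whose cholesterol leaves the lysosome through the NPC proteins. SREBP transcription factors, held back by the INSIG proteins when sterols are plentiful, switch on the enzymes of synthesis and the LDL receptor, and SREBP-1c acts mainly on fatty acid synthesis. LXR nuclear receptors, paired with RXR and activated by oxysterols, switch on cholesterol export and the breakdown of the LDL receptor. In T cells, synthesis rises with activation and division, and LXR signalling restrains proliferation.

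The 5 arrays had median intensities of 59.0 to 60.3, and precision is limited by how few arrays there are. Levels below are log2(intensity + 1), and changes are PLZF transgenic minus wild type on that scale with the standard error (SE) of a limma fit. A gene was called at a Benjamini-Hochberg adjusted p under 0.05 over all genes. In 67.2% of the 12267 genes, and in 14 of the 26 members, 2 or more arrays held the same value. Among these members the measured spread ran from none in Fdps to an SE of 0.09 in Fads2. Of 16 listed T cell markers, 5 were measured, at levels of 9.73 to 12.03. Of these, Cd2, Cd5 and Cd28, which encode adhesion, inhibitory and costimulatory receptors, were called lower in transgenic cells. Without transgenic replicate 1, 2 or 3, Cd2, Cd5 and Cd28 were not called. Cd247 (-0.22) was not called, nor was Zap70 (0.01), which overlapped between genotypes. The summed intensity of the 5 markers was 10229 to 10443 in transgenic arrays, against 12781 to 13348 in wild type arrays. Cd4, Cd8a and Cd3e were not analysed here. The deposited values come from bulk RNA, so fewer cells of a type and less RNA per cell cannot be told apart.

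CD4SP cells of PLZF transgenic mice had less transcript for Abcg1, which encodes a cholesterol exporter, for Mylip, which encodes the ubiquitin ligase IDOL that marks the LDL receptor for breakdown, and for Npc2, a cholesterol carrier of the lysosome. They were 1.54-fold, 1.41-fold and 1.46-fold lower, and they were the members past the threshold (limma adjusted p = 0.0315, 0.0370 and 0.0379). No member was called higher. With 0 of 26 members called higher and 3 called lower, the background over all genes tested was 1.72% called higher and 3.02% called lower. At an unadjusted p under 0.05 (limma) the members counted 0 higher and 8 lower, against 7.07% higher and 9.74% lower of all genes. The median log2 change of members was -0.08, against 0 over all genes tested, and it moved to -0.1121 without wild type replicate 1 and to -0.0282 without wild type replicate 2. Of the 26 members, 73.1% had a change below 0, against 41.0% of all genes, some of which had no change at all. Among genes with a different value on each of the 5 arrays, it was 83.3% of 12 members, against 51.5% of 4027 genes. In the 70 measured lipid pathway genes outside the member list, 35.7% had a change below 0, with a median change of 0.0079. The members were chosen with earlier results of these data known.

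In 11 of the 26 members every transgenic array lay below both wild type arrays, and in 3 members, Npc1, Nr1h3 and Elovl6, every transgenic array lay above them. Over all genes tested these separations were seen in 15.1% and 12.6%. Among the 12 members with 5 different values the counts were 10 below and 2 above, against 35.3% below and 27.8% above in the 4027 genes of that kind. When those 4027 genes were fitted on their own, 8 of the 12 members were called lower and 0 higher, against 15.5% lower and 10.4% higher of the genes fitted. Idi1, Sqle, Srebf2, Scd2 and Fads1 joined the 3 genes above in that fit. The restriction to 5 different values depends on the change itself, since a value shared between genotypes removes a gene. Of the 4027 genes it keeps, 63.1% did not overlap between genotypes, against 10.3% of the other 8240, which eases the threshold for genes that differ, so these counts support nothing about the members.

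**Figure D1:**
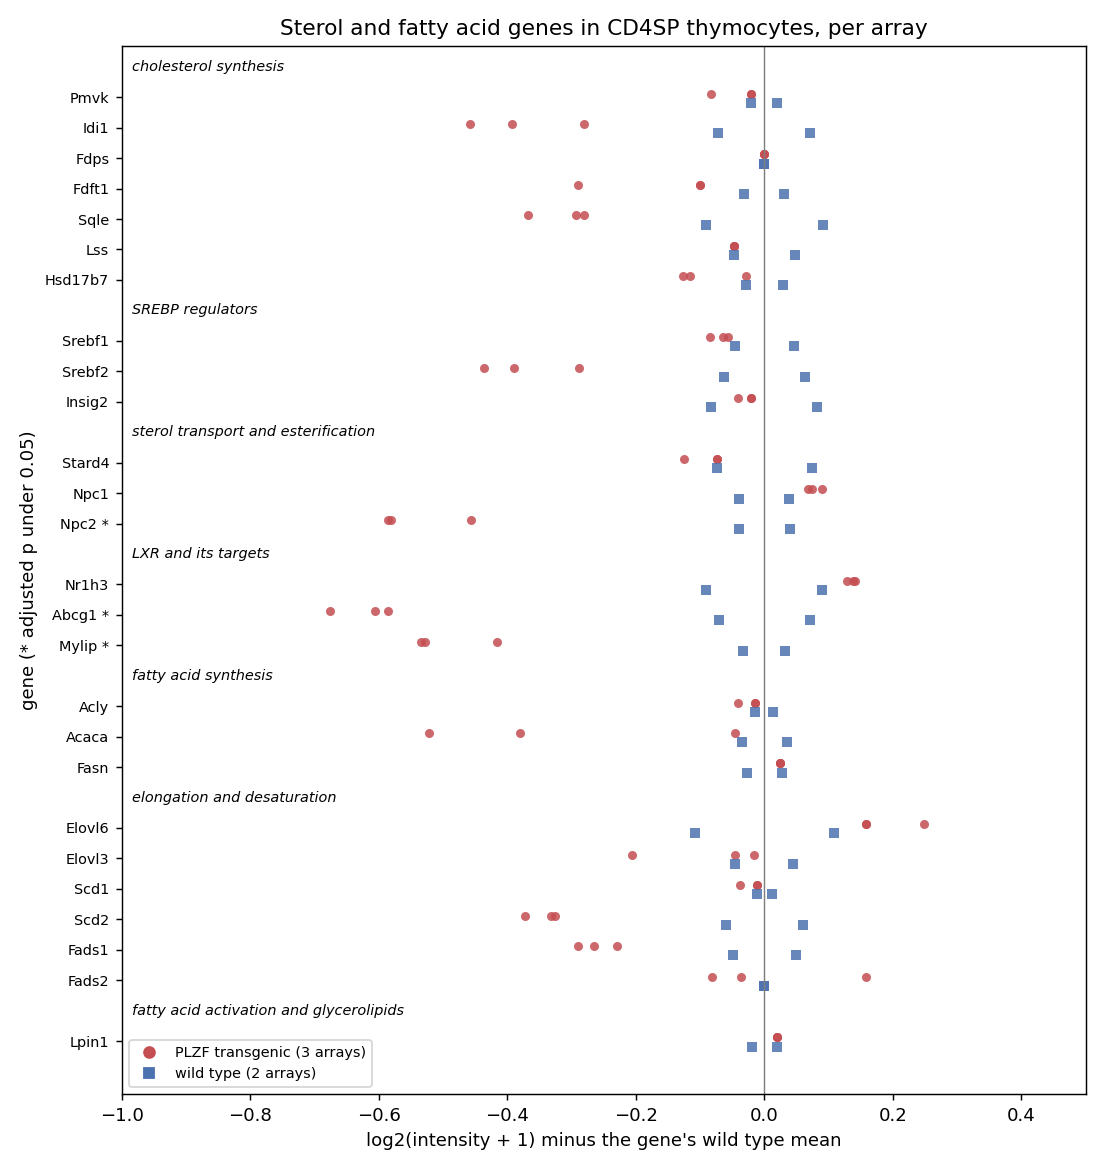
Each row is a measured member, grouped by role, and the horizontal axis gives log2(intensity + 1) on each array minus the gene's wild type mean. Circles are the 3 PLZF transgenic arrays, squares the 2 wild type arrays, and an asterisk marks an adjusted p under 0.05. Abcg1, Npc2 and Mylip lie farthest to the left, and many other members have transgenic points on top of the wild type ones.

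**Figure D2:**
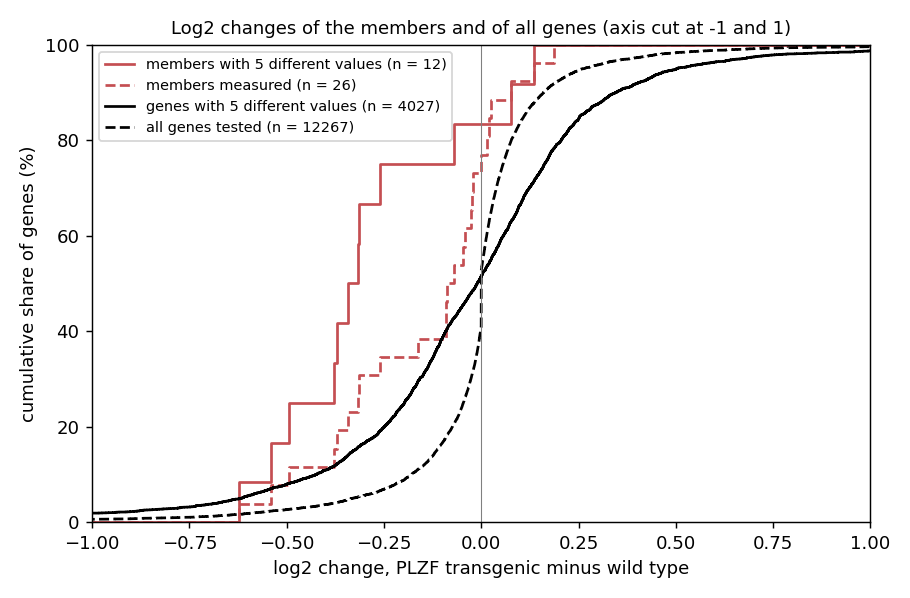
Cumulative share of genes against the log2 change, PLZF transgenic minus wild type, for the members (red) and for all genes (black). Solid lines hold genes with 5 different values, 12 members and 4027 genes, and dashed lines all 26 measured members and all 12267 genes. Both member curves lie left of the matching gene curves over most of the negative range, and the dashed curves are steep at 0, where genes with repeated values gather.

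The calls changed when 1 array was left out, which also leaves fewer degrees of freedom for the fit. Without transgenic replicate 1, 2 or 3, no member was called (limma, with 8 lower and 0 higher at an unadjusted p under 0.05 in each fit, against 1584, 1612 and 1603 of all 12267 genes in either direction). The number of genes called over all genes tested was then 4, 45 and 10, against 581 genes called with all arrays. Without wild type replicate 1, the changes of Abcg1, Mylip and Npc2 were -0.69, -0.53 and -0.58. Without wild type replicate 2, they were -0.55, -0.46 and -0.50. In these 2 fits the lone wild type array adds no spread, and it is taken to vary like the transgenic arrays. Their calls are therefore not listed by gene. With 1 array left out in turn, the changes of Abcg1, Mylip and Npc2 ran from -0.69 to -0.55, from -0.53 to -0.46 and from -0.58 to -0.50.

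The LXR group held the largest change among the members, that of Abcg1. This ABC transporter loads cholesterol onto high-density lipoprotein and is a classical LXR target. Abcg1 had levels of 10.20, 10.29 and 10.27 in the PLZF transgenic arrays, against 10.80 and 10.94 in the wild type arrays. The groups did not overlap, and the gap between them was wider than the range within either. The change of Abcg1 was -0.62 ± 0.06 (SE), with a 95% confidence interval of -0.80 to -0.45 (limma), and over all settings its adjusted p ran from 0.00409 to 0.225. Mylip had 9.83, 9.82 and 9.94 in the transgenic arrays, against 10.32 and 10.39 in the wild type arrays. Again all transgenic arrays lay below both wild type arrays. Its change was -0.49 ± 0.05 (SE), with an interval of -0.64 to -0.34. Nr1h3, which encodes LXR alpha, had 6.98, 6.99 and 6.99 in the transgenic arrays, against 6.94 and 6.76 in the wild type arrays, a change of 0.14 ± 0.06 (SE) that did not pass (limma adjusted p = 0.458, interval -0.05 to 0.32). With 1 array left out, the change of Nr1h3 ran from 0.0455 to 0.2261.

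The promoter window of Mylip, from 250 bases before to 50 bases after its RefSeq transcription start on the GRCm38.p6 build (chr13:45389492-45389791, plus strand), is shown because Mylip is one of the called members with such a window. Capitals mark the 3 matches to the NF-Y box, CCAAT, which is bound by the factor NF-Y that acts beside SREBP at many sterol genes. All 3 are on the opposite strand and read ATTGG.
Mylip: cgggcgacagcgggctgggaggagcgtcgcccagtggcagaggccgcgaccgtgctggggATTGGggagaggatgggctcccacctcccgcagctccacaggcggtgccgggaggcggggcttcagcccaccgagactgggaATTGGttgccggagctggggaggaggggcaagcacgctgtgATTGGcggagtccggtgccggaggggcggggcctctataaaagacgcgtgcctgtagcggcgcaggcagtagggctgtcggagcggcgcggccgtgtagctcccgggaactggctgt
They begin 190, 108 and 67 bases before the start.

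Npc2, the soluble lysosomal protein that hands cholesterol to the membrane protein Npc1, was also lower. It had 9.63, 9.76 and 9.63 in the transgenic arrays, against 10.18 and 10.25 in the wild type arrays, with no overlap. The change was -0.54 ± 0.06 (SE), with a 95% confidence interval of -0.71 to -0.37 (limma). Npc1 itself had 10.06, 10.08 and 10.07 in the transgenic arrays, against 9.96 and 10.03 in the wild type arrays, a change of 0.08 ± 0.03 (SE) with an interval of -0.01 to 0.16 (limma adjusted p = 0.334). After quantile normalization Npc1 was called higher, and with 1 array left out its change ran from 0.0384 to 0.1166. The change of Stard4, a carrier of sterols through the cytosol, was -0.09 ± 0.055 (SE, limma adjusted p = 0.458). With an intensity trend and a robust fit, Npc2 and Mylip had limma adjusted p values of 0.0516 and 0.0504, in ranges from 0.00621 to 0.516 and from 0.00707 to 0.543 over all settings, and Abcg1 was the member still called. With array weights no member was called (limma, 5 lower and 0 higher at an unadjusted p under 0.05). That fit called 1 gene among all genes tested, and 1010 genes had an unadjusted p under 0.05 (limma) in either direction. The loss of calls there was therefore not particular to the members.

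The promoter window of Npc2, the other called member with a window (chr12:84773063-84773362, minus strand, GRCm38.p6), held 2 matches to the NF-Y box, in capitals, the first on the opposite strand.
Npc2: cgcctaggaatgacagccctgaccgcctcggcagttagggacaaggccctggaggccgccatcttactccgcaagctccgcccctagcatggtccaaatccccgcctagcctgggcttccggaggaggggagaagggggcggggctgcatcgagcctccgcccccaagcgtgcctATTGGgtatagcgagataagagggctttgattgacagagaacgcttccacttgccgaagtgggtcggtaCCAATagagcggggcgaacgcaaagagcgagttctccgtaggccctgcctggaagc
They begin 75 and 6 bases before the start. No window of Abcg1 was used here. The letters TCACNCCAC of a sterol regulatory element, searched on both strands, were in neither window, nor was the E-box CACGTG.

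Abcg1 and Npc2 are also well expressed in macrophages, so the markers of that cell type were read beside them. Of 10 listed macrophage and monocyte markers 5 were measured, and none was called (limma, 2 lower and 0 higher at an unadjusted p under 0.05). The summed intensity of the 5 was 555 to 606 in the transgenic arrays, against 687 to 724 in the wild type arrays. Cd68 had a change of -0.39 ± 0.09 (SE, limma adjusted p = 0.149) and Cd14 of -0.32 ± 0.10. In both, every transgenic array lay below the wild type arrays. Adgre1, a receptor of mature macrophages, had the same value of 4.68 in all 5 arrays. Csf1r had 6.28 in every array but wild type replicate 2 and differed by 0.04. Rows with such repeated values leave little or no measured spread. The part of the macrophage and monocyte markers in the lower Abcg1 and Npc2 was not tested. The 4 measured of 10 adipocyte markers summed to 172 to 175 in the transgenic arrays, against 170 to 174 in the wild type arrays, and none was called (limma, 0 at an unadjusted p under 0.05). Among markers of the other cell types, 3 of 8 for double-positive and CD8 thymocytes were measured, Rag2, Dntt and Ptcra. Their sums were 293 to 322 in transgenic arrays, against 339 to 355 in wild type. Dntt had a change of -0.54 ± 0.16 (SE), Rag2 of 0.12 and Ptcra of 0.02. The 6 measured of 10 B cell markers summed to 455 to 488, against 433 to 438 in wild type. For dendritic cells 2 of 9 were measured, Cst3 (0.27) and Zbtb46 (0.07). Their sums were 371 to 404, against 333 to 337 in wild type. The 1 natural killer and innate-like marker measured, Tbx21, had 240 to 263, against 206 to 220 in wild type. None of the 28 measured markers of other cell types was called (limma, 3 higher and 3 lower at an unadjusted p under 0.05), and neither their part nor that of the T cell markers in the members' changes was tested.

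None of the 3 SREBP regulators was called (limma, 1 lower and 0 higher at an unadjusted p under 0.05). Srebf2, which encodes the SREBP that acts mainly on cholesterol genes, had 6.77, 6.67 and 6.62 in the transgenic arrays, against 6.99 and 7.12 in the wild type arrays. All transgenic arrays were lower, with a change of -0.37 ± 0.07 (SE) and a 95% confidence interval of -0.57 to -0.17 (limma adjusted p = 0.0970). Over all settings its adjusted p ran from 0.0232 to 0.626. Srebf1 had a change of -0.07 ± 0.03 (SE) and an interval of -0.17 to 0.03. The change of Insig2, which retains SREBP in the endoplasmic reticulum, was -0.03 ± 0.06 (SE), with an interval of -0.20 to 0.14.

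The enzymes of cholesterol synthesis had changes of -0.38 to 0. Of 7 measured, 0 were called in either direction (limma, 2 lower and 0 higher at an unadjusted p under 0.05), and the median change was -0.09. Idi1, which isomerises isopentenyl diphosphate, had 6.61, 6.67 and 6.78 in the transgenic arrays, against 7.13 and 6.99 in the wild type arrays. The groups did not overlap, and the change was -0.38 ± 0.08 (SE, limma adjusted p = 0.125). Sqle, the squalene epoxidase and a rate-limiting step of sterol synthesis, had 6.40, 6.31 and 6.39, against 6.59 and 6.77 in wild type. It was lower in every transgenic array, with a change of -0.31 ± 0.07 (SE, limma adjusted p = 0.142). Its second, dimmer row had a change of -0.86 ± 0.19 and did not overlap between genotypes either. In Fdft1, the squalene synthase, both rows lay lower in every transgenic array, with changes of -0.16 ± 0.08 and -0.63 ± 0.26 (SE), and neither was called. Fdps, the farnesyl diphosphate synthase, had the same value of 7.71 in all 5 arrays, so its row shows no spread at all. Pmvk (-0.04), Lss (-0.05) and Hsd17b7 (-0.09), which act early, in the middle and late in the pathway, overlapped between genotypes and also held repeated values.

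**Figure D3:**
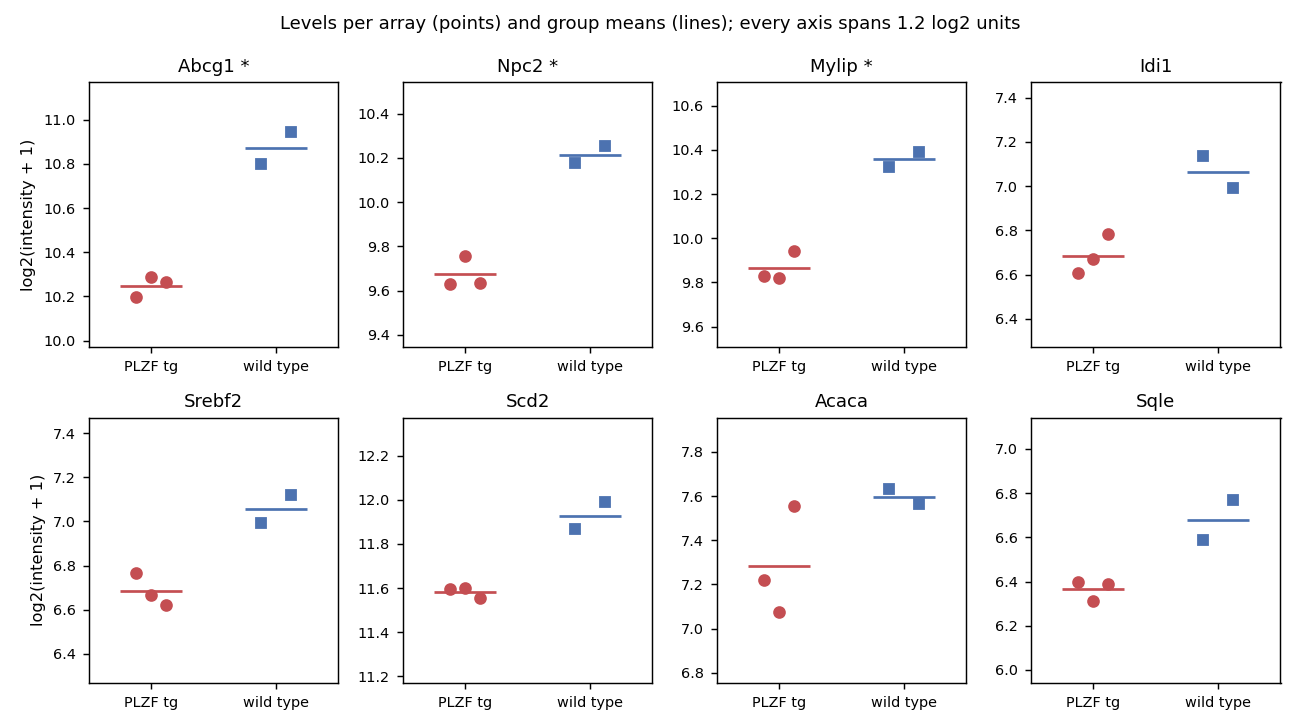
Level of 8 members on each array, as log2(intensity + 1), with the PLZF transgenic arrays (red circles) left of the wild type arrays (blue squares). Lines are group means, each axis spans 1.2 log2 units, and an asterisk marks an adjusted p under 0.05. The genes are the members called, or not overlapping with an absolute change of at least 0.3, so their separation follows from that choice. In Acaca 1 transgenic array sits just below the lower wild type array, and in the other 7 genes the gap is wider.

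Of 3 enzymes of fatty acid synthesis measured, 0 were called (limma, 0 at an unadjusted p under 0.05). Acly, which makes cytosolic acetyl-CoA from citrate, differed by -0.02 ± 0.01 (SE), and Fasn, the fatty acid synthase, by 0.02 ± 0.02. Their 95% confidence intervals were -0.07 to 0.02 and -0.03 to 0.08 (limma), although Fasn had the same value of 10.32 in all 3 transgenic arrays. Acaca, the acetyl-CoA carboxylase that sets the rate of the pathway, had 7.22, 7.08 and 7.55, against 7.63 and 7.56 in wild type. The transgenic arrays spread widely, and the change of -0.32 ± 0.17 (SE) did not pass (limma adjusted p = 0.458). The other 3 rows of Acaca had changes of 0.13, -0.03 and -0.06, so the rows of this gene disagree in direction.

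Among the desaturases of the set, the largest change was that of Scd2, a delta-9 desaturase that makes monounsaturated fatty acids in many tissues other than liver. It had 11.60, 11.60 and 11.55 in the transgenic arrays, against 11.87 and 11.99 in the wild type arrays. The genotypes did not overlap, and the change of -0.34 ± 0.05 (SE) lay just outside the threshold (limma adjusted p = 0.0548). Scd2 was called lower when dim genes were left out, and also under quantile normalization, cyclic loess and median centring. It was not called with array weights, the replicate block or an intensity trend with a robust fit, nor without transgenic replicate 1, 2 or 3. Over all settings its limma adjusted p ran from 0.0107 to 0.295. Scd1, the paralog best known from liver and fat, differed by -0.02 ± 0.01. Scd4, chosen after its value was seen, differed by -0.54 ± 0.09 (limma adjusted p = 0.0808), and whether probes of these neighbouring paralogs read each other's transcripts was not tested. Fads1, the delta-5 desaturase of polyunsaturated fatty acids, had 7.87, 7.84 and 7.81, against 8.05 and 8.15 in wild type. Every transgenic array was lower, with a change of -0.26 ± 0.04 (SE, limma adjusted p = 0.0715). Fads2, the delta-6 desaturase beside it on chromosome 19, differed by 0.01 ± 0.09, with an interval of -0.25 to 0.27. Of the elongases, Elovl6 had 7.61, 7.70 and 7.61, against 7.34 and 7.56 in wild type, a change of 0.19 ± 0.08 (SE, limma adjusted p = 0.452). The change of Elovl6 was 0.0803 without wild type replicate 1 and 0.2958 without wild type replicate 2. Elovl3 differed by -0.09 ± 0.08. Lpin1, a phosphatidate phosphatase, differed by 0.02 ± 0.01 and had 1 value, 8.59, in all transgenic arrays.

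Other genes of these pathways were read from 10 lists, which without the members held 142 genes, 70 of them measured. Of these, 4 were called higher and 2 lower. The share called lower, 2.86%, was near the 3.02% of all genes. The 4 of 70 called higher stand against 1.72% of all genes. At an unadjusted p under 0.05 (limma), 14 of the 70 were higher and 9 lower, against 7.07% and 9.74% of all genes. Osbpl8, an oxysterol-binding protein relative that moves lipids between the endoplasmic reticulum and the plasma membrane, was 1.47-fold lower. Its levels were 9.50, 9.45 and 9.47 in the transgenic arrays, against 10.05 and 10.02 in the wild type arrays, with no overlap and a narrow spread in both groups (limma adjusted p = 0.00812). It was the 1 gene called among 9 measured non-members of the list of sterol uptake, transport and esterification. Gpr183, a receptor for oxysterols, was the 1 called of 5 measured genes of oxysterol synthesis and sensing, with a change of -1.98 ± 0.12 (SE, limma adjusted p = 0.0170). Gpr183 had 9.26, 9.55 and 9.26 in the transgenic arrays, against 11.38 and 11.29 in the wild type arrays. Ch25h and Cyp7b1, enzymes of oxysterol synthesis in the same list, were not called, with changes of -0.01 and 0.03 (named after their values were seen). Both were dim, with mean levels of 4.43 and 4.46 over all arrays.

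LXR-related genes moved both ways. Of 7 measured non-members in that list, 2 were called higher and 0 lower (limma, 2 lower at an unadjusted p under 0.05), while the members Abcg1 and Mylip were called lower. Smpdl3a, a phosphodiesterase known as an LXR target in human macrophages, was 1.94-fold higher, and its dependence on LXR in mouse cells was not tested. Its levels were 11.41, 11.48 and 11.47 in the transgenic arrays, against 10.46 and 10.53 in the wild type arrays, and the groups lay far apart (change 0.96 ± 0.03, SE, limma adjusted p = 0.00867). Rxra, which encodes the partner receptor RXR alpha, had 8.19, 8.16 and 8.17, against 7.70 and 7.79 in wild type. It was 1.35-fold higher with no overlap (limma adjusted p = 0.0207).

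Genes of glycerolipid synthesis gave the other rises. Of 10 measured non-members, 2 were called higher and 0 lower (limma, 1 lower at an unadjusted p under 0.05). Lpin2, a phosphatidate phosphatase like Lpin1, was 1.72-fold higher, with 8.35, 8.40 and 8.35 in the transgenic arrays, against 7.53 and 7.64 in the wild type arrays (limma adjusted p = 0.0140). Its other 2 rows, which are dimmer, had changes of 0.64 and 0.18, both with every transgenic array above wild type and neither called. Agpat4, an acyltransferase that makes phosphatidic acid, had 7.52, 7.47 and 7.49, against 7.11 and 7.09 in wild type, and was 1.31-fold higher (limma adjusted p = 0.0106). The groups of both genes did not overlap. Without transgenic replicate 1, 2 or 3, none of these 6 genes was called, except Gpr183 without transgenic replicate 2.

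In the remaining 6 lists no non-member was called (limma, 39 genes measured, 9 higher and 4 lower at an unadjusted p under 0.05). Their largest changes were those of Lbr (-0.01), which encodes a sterol reductase, Erlin1 (0.10), of the endoplasmic reticulum membrane, and Acss1 (-0.34), a mitochondrial acetyl-CoA synthetase. Elovl7 (-0.87), a fatty acid elongase, Slc27a6 (0.39), a fatty acid transporter, and Ppargc1b (0.35), a coactivator of oxidative metabolism, were the largest in theirs. The second, dimmer row of Ppargc1b had a change of 0.12 ± 0.01 (SE), with every transgenic array above wild type, and passed the threshold when all rows were tested (limma adjusted p = 0.0347). Elovl7 had 6.67, 7.14 and 7.01 in the transgenic arrays, against 7.78 and 7.83 in the wild type arrays, with a wide spread among the transgenic arrays and a limma adjusted p of 0.105. The median change was 0.07 over 8 measured genes of fatty acid activation and transport, and 0.05 over 12 of fatty acid oxidation, against 0 over all genes.

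**Figure D4:**
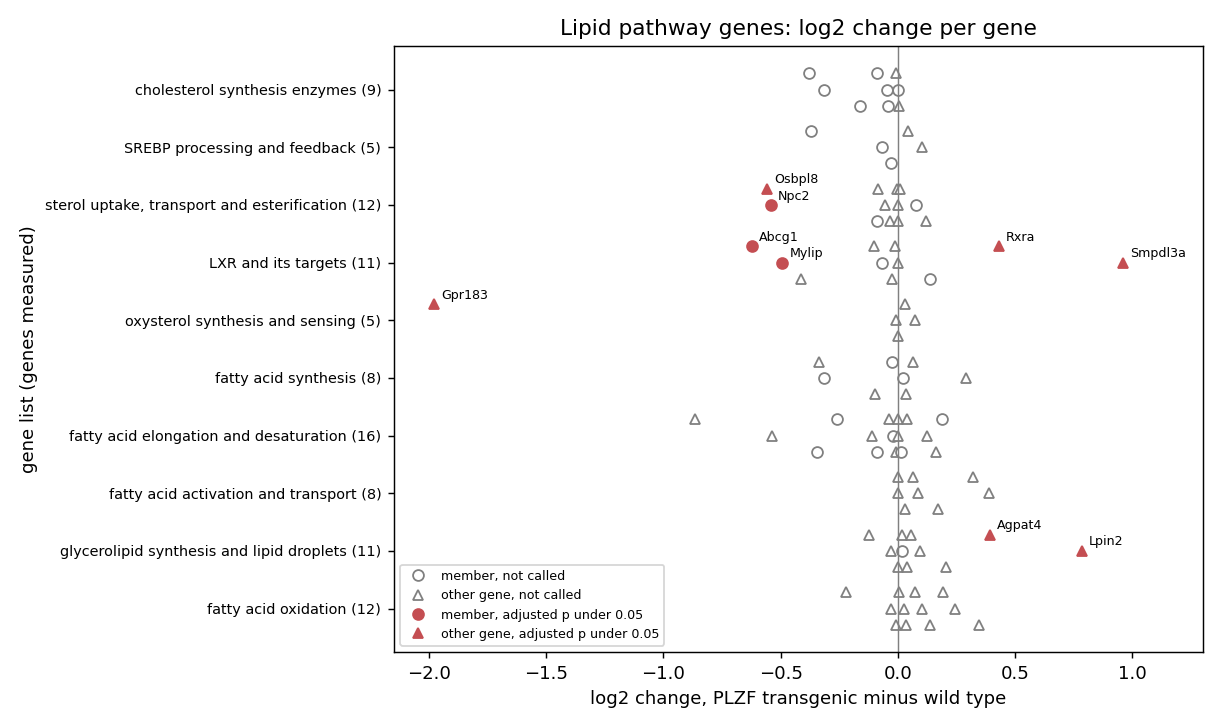
Log2 change, PLZF transgenic minus wild type, of each measured gene in 10 lipid pathway lists, with the number measured in brackets. Circles are members and triangles other genes, filled and labelled where the adjusted p was under 0.05. In the LXR list Abcg1 and Mylip lie left of 0 and Rxra and Smpdl3a right of it.

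Of the 33 members, 23 had at least 1 RefSeq promoter window of 300 bases. The NF-Y box CCAAT, searched on both strands, was in 18 of their 29 windows (62.1%), against 37.4% of all 32851 windows. For the 16 measured members with a window, 11 had a match in at least 1 of their windows (68.8%), against 41.1% of all genes with windows. Idi1 had matches that begin 45 and 14 bases before its start, Srebf2 had 1 at 135 bases, and Fasn, which did not pass the test, had 3. The sterol regulatory element letters TCACNCCAC were in 1 member window, that of Hmgcs1, against 1.24% of all windows. The E-box CACGTG was also in 1 member window, that of Hsd17b7, against 7.15% of all. A match describes letters in a window and is not a measured binding site.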

How the data were processed

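RNA of sorted CD4SP thymocytes was amplified, labelled with biotin and hybridised to Affymetrix mouse exon arrays, per the labels' protocols. RMA, the Affymetrix Expression Console and mm9 appear in the submitters' processing notes, with no version. The authors deposited 1 table of intensity on a linear scale, and their log2 was a round number at the 5th decimal for 100% of values. Of 65529 rows, 14011 named 1 gene, 864 several and 50654 none in the platform annotation. All 33 member symbols matched RefSeq (GRCm38.p6).

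The values were taken as log2(intensity + 1), and PLZF transgenic minus wild type was fitted over 12267 genes in R 4.3.3 (limma 3.58.1, functions lmFit and eBayes), with no filter on level, so all 26 measured members entered. With 3 arrays against 2, exact permutation allows no p under 0.1, so it was not used. Values were called identical within 0.000005. The prior degrees of freedom were 0.5 over all genes and 2.02 over genes with 5 different values. The procedure was tested on simulated data, which held no repeated values and so cannot show how the fit treats them.

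The members, lists, motifs and tests were chosen with earlier results of these data known. All measured members are named. Those past the threshold, or separated with a change of at least 0.3, are given per array, as are called pathway genes, and lists with no call give their largest change. In all, 19 alternatives were planned, and 5 were added after seeing the data, which leave out 1 array among the genes with 5 different values.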

Additional observations from a re-analysis of the deposited data

How the results depend on the processing

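Adjusted p values are from limma. Of all genes called, 36.3% were higher in the transgenic arrays, against 46.4% after quantile normalization, and no scaling moved the median of all genes by more than 0.0034. Counts are given as genes called (genes called higher and genes called lower), members called lower, and pathway genes that are no members, called higher and called lower. The fit reported gave 581 (211 and 370), 3, 4 and 2. Cyclic loess gave 964 (395 and 569), 5, 7 and 3. Quantile normalization gave 1132 (525 and 607), 6, 9 and 5, with 1 member called higher. The genes with 5 different values gave 1043 (418 and 625), 8, 8 and 5, and a median log2 change of members of -0.3293. An adjusted p under 0.1 gave 1031 (403 and 628), 6, 6 and 3, and one under 0.01 gave 63 (19 and 44), 0, 1 and 1. Array weights gave 1 (1 and 0), 0, 0 and 0, with 1010 genes at an unadjusted p under 0.05. An intensity trend with a robust fit left 1 member called. The replicate block gave 0 (0 and 0), 0, 0 and 0, with 1917 genes and 6 members (all lower) at an unadjusted p under 0.05. In that fit transgenic replicate 3 has no wild type partner and adds nothing to the change. Few degrees of freedom remain, so the lack of calls there decides nothing. The samples share only a replicate number, no label pairs them, and their deviations correlated at 0.1226 and 0.0325 over 4027 genes. Samples with unlike numbers correlated at -0.1226 to 0.0884. The deviations of 2 wild type arrays mirror each other, so these values cannot settle the pairing. Median centring gave 758 genes called (278 and 480) and 4 members, and the dim filter 746 and 4. Leaving out 1 array gave 4 to 2890 genes called (2 to 1319 higher, 2 to 1571 lower), 0 to 9 members called lower and 0 to 3 higher, 0 to 13 pathway genes higher and 0 to 8 lower, and a median member change of -0.1121 to -0.0282. The high counts came without wild type replicate 1 (2890) and 2 (1852), where the lone wild type array adds no spread. Among genes with 5 different values, a restriction that favours genes that differ and was made with all 5 arrays, leaving out 1 array (added after seeing the data) gave 513 to 1058 genes called (191 to 404 higher, 322 to 692 lower), 3 to 7 members called lower and 0 to 1 higher, 4 to 7 pathway genes higher and 3 to 4 lower, and medians of -0.3341, -0.3193 and -0.3335 without transgenic replicate 1, 2 and 3 and of -0.357 and -0.2953 without wild type replicate 1 and 2 (366 genes called higher without wild type replicate 1). Some changes near 0 turned sign. Fads2 was -0.0587 with the replicate block and -0.0024 after quantile normalization. Quantile normalization put Lbr at 0.0372 and Acly at 0.0056, and cyclic loess put Lbr at 0.0034. With 1 array left out Lbr ran from -0.0133 to 0.0033, Fads2 from -0.0587 to 0.0611, Fasn from -0.0035 to 0.0512 and Insig2 from -0.1097 to 0.0551. Other pseudocounts (0 and 16), the mean of a gene's rows and all rows tested gave 557 to 593 genes called and 3 members called lower. The cause of these differences between settings was not tested.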
